A study of Mus musculus with 18 samples.

Results

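The genes described here are 9 collagen genes that lie outside the fibrillar and basement membrane classes: the 3 chains of collagen VI (Col6a1, Col6a2, Col6a3), the single chain of collagen VII (Col7a1), both chains of collagen VIII (Col8a1, Col8a2), and 3 collagens that attach to the surface of fibrils, the fibril-associated or FACIT collagens (Col12a1, Col14a1, Col16a1). They were taken by gene name from a table of 55450 genes, and all 9 were found, each with 1 row. Mouse embryonic fibroblasts of a purchased stock were transfected with a lipid reagent and sequenced as 18 poly(A) libraries in 6 groups of 3. Every group received a plasmid: the empty pcDNA3 vector, a vector that expresses miR-29b from a rat Col1a1 promoter (Col1a1-miR-29b), or a vector that expresses it from the CMV promoter (CMV-miR-29b). Each vector was studied without TGF-β and with TGF-β added 6 h after transfection for 24 h. The plasmids were given at an equal molar amount, so that the longer Col1a1-miR-29b plasmid brought more DNA per well than the CMV-miR-29b plasmid, and DNA mass cannot be told apart from the vector. The study's methods describe a human miR-29b-1 insert, with EGFP behind the same promoter and mRFP1 as a transfection marker, and the empty vector carries none of these.

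Collagen VI is assembled from an α1, an α2 and an α3 chain into beaded filaments around cells, and the loss of any of these chains causes muscle disease. Collagen VII forms the anchoring fibrils that hold the epidermal basement membrane to the dermis, collagen VIII is a short-chain network collagen of vessel walls and Descemet's membrane, and collagens XII, XIV and XVI decorate fibrils and link them to other matrix proteins. TGF-β is the main cytokine known to raise collagen synthesis in fibroblasts. The miR-29 family represses many collagen mRNAs through sites in their 3′ UTRs that pair with the miRNA seed, bases 2 to 8 from its 5′ end.

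The mature sequences of the family are shown because the members are compared across cells given miR-29b. They are the mouse entries of RefSeq on GRCm38.p6, 5′ to 3′, with the seed in capitals. All 3 hold the same seed, so a seed match does not distinguish between them.
miR-29b-3p (chr6:31063025-31063047, minus strand): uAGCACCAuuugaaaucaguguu
miR-29a-3p (chr6:31062673-31062694, minus strand): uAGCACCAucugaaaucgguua
miR-29c-3p (chr1:195037600-195037621, plus strand): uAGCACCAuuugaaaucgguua

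The longest annotated 3′ UTR of each member (GENCODE, GRCm38) was searched for the complement of this seed. A match to bases 2 to 8 followed by A is called an 8mer, a match to bases 2 to 8 alone a 7mer-m8, and a match to bases 2 to 7 followed by A a 7mer-A1. Of the 9 members, 6 held at least 1 match and 4 held an 8mer, while 3 held none. Among the 14532 tested genes with an annotated 3′ UTR, 18.01% held at least 1 match and 3.14% an 8mer. The sites are printed on the transcript strand with the match in capitals, because they differ in type and number between the chains.
Col6a1, base 538 of 767: actctgaaagcaaaGGTGCTAtctatc
Col6a2, base 841 of 1763: agcacaaatgggggTGGTGCTAtttgaa
Col6a3, base 174 of 732: gtgacctgtcaataTGGTGCTAaatgtg
Col7a1, base 83 of 363: tgctgtgctccattTGGTGCTAgagttg
Col7a1, base 315 of 363: aggctgtgataccaTGGTGCTgatggg
Col8a1, base 2199 of 2653: tgtatattctaccaTGGTGCTAatatca
Col16a1, base 176 of 185: ccatggggttccccTGGTGCTgca
The 4 genes with an 8mer were Col6a2, Col6a3, Col7a1 and Col8a1. Col7a1 had 2 matches in a 3′ UTR of 363 bases, and 3.30% of the tested genes had 2 or more. Col12a1, with a 3′ UTR of 2178 bases, Col8a2 and Col14a1 had no match. A match is a stretch of letters and was not tested for binding, and sites in coding sequence were not searched.

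**Figure D1:**
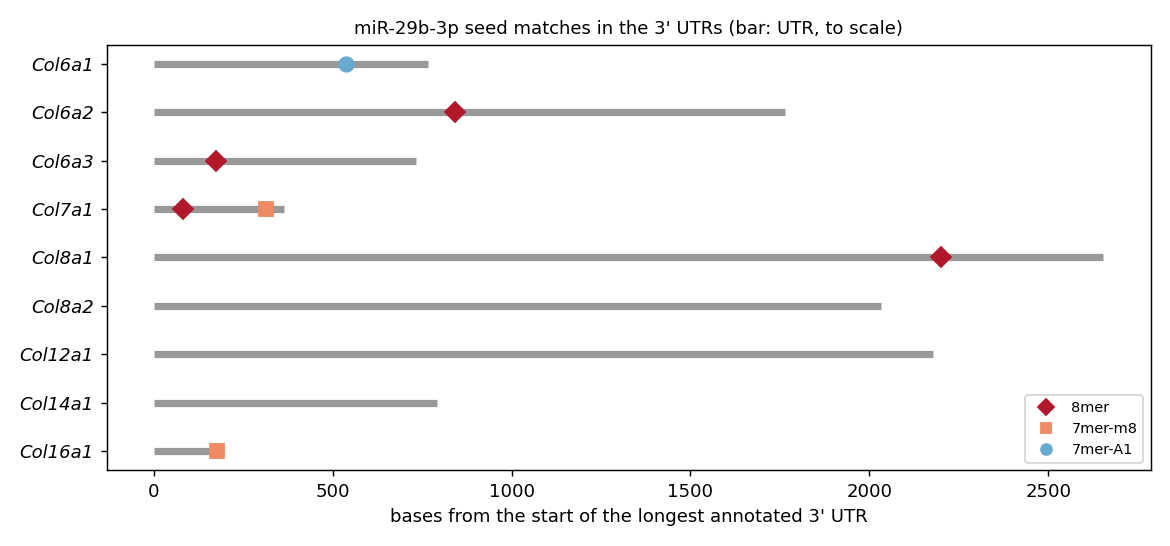
Position of each miR-29b-3p seed match in the longest annotated 3′ UTR of the 9 genes (x axis: bases from the start of the 3′ UTR; grey bar: its length; marker shape and colour: type of match). Col7a1 carries 2 matches, 5 genes carry 1, and Col8a2, Col12a1 and Col14a1 carry none.

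Total counts per library ran from 65898017 to 80332633, with a median of 74155860. Levels are given as CPM, counts scaled to a common library total after TMM, and a gene was called changed at an adjusted p under 0.05 in edgeR's quasi-likelihood test over all 21161 genes that passed its filter on low counts. In each library 33.8% to 36.7% of the counts from 1 to 40 were multiples of 4, against 25% of the whole numbers in that range, so low counts carry error beyond that of single reads. Whether the 3 libraries of a group came from separate cultures is given only as repeated experiments, so p-values measure the spread between these libraries. Of 10 fibroblast markers, Col1a1, Col1a2, Fn1 and Vim were at 429 CPM or more in every library, but Lum had 0 counts throughout and Thy1 at most 0.114 CPM. The summed levels of the other marker lists were low and some moved with TGF-β. The 7 epithelial markers summed to 0.267 to 1.56 CPM without TGF-β and 1.71 to 3.14 CPM with it, mostly Krt14, and the 5 endothelial markers to 1.03 to 1.96 and 2.09 to 3.03 CPM. Of the neural markers, Tubb3 had 29.2 to 38.4 CPM without TGF-β and 50.3 to 60.8 CPM with it, with no overlap, and Sox10 was at most 0.302 CPM. The 6 leukocyte markers (9.47 to 14.3 CPM, mostly Cd68) and the 5 muscle markers (13.8 to 21.6 CPM, mostly Des) overlapped between treated and untreated libraries. In a bulk library, fewer cells expressing a gene and less RNA per cell cannot be told apart.

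The vectors were checked on the mouse precursor gene Mir29b-1. It had 0 counts in all 6 empty vector libraries, 0 to 1 in untreated Col1a1-miR-29b cells and 2 to 6 with it. CMV-miR-29b cells had 110 to 309 before and 203 to 293 after TGF-β. Poly(A) libraries do not measure the mature miRNA, so these counts give the precursor transcript only.

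Per transcript length, 6 of the 9 genes were plainly expressed and 3 were close to the floor. In empty vector cells without TGF-β the mean FPKM, a unit scaled for length and library total, was 36.6 for Col6a1, 18.3 for Col16a1, 10.9 for Col8a1, 9.14 for Col6a2, 6.69 for Col12a1 and 2.01 for Col7a1. The ranges over the 3 libraries of neighbours in this order did not overlap; the closest pair was Col8a1 (10.6 to 11.4) and Col6a2 (8.91 to 9.42). Col8a2 (0.00846 to 0.0797), Col14a1 (0.0120 to 0.0260) and Col6a3 (0.00349 to 0.0171) overlapped. Dividing CPM by the longest annotated transcript in place of the authors' gene length kept the order of these 6 genes but changed the gaps, with 43.7 CPM per kb for Col6a1, 18.6 for Col8a1 and 17.3 for Col6a2. All 9 genes passed the filter, Col8a2 with 4 to 53 counts per library and Col14a1 with 0 to 17.

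**Figure D2:**
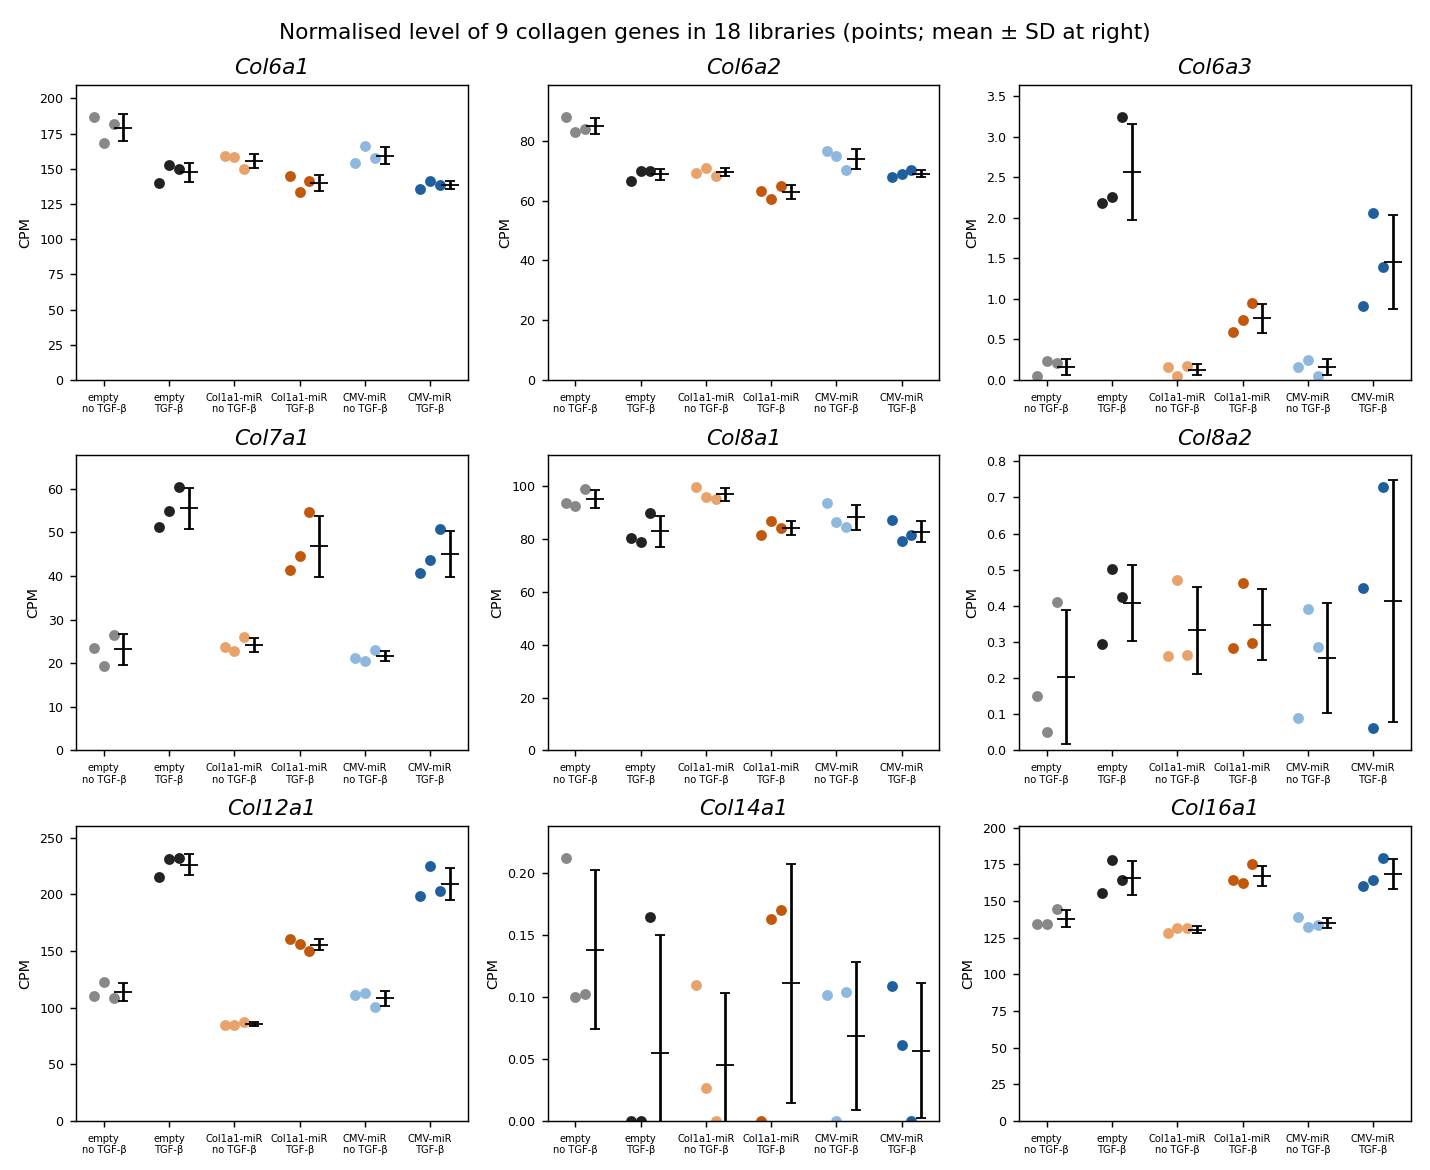
CPM of the 9 genes (one panel each, linear axis from 0) in the 18 libraries by vector and treatment; points are libraries, and the bar beside them is the mean ± SD of 3 libraries. Col6a3, Col7a1 and Col12a1 are higher in every TGF-β library than in every untreated library of the same vector, and Col8a2 and Col14a1 scatter near 0.

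The first comparison asked which of these genes TGF-β changed in cells with the empty vector. Col6a3, Col7a1, Col12a1 and Col16a1 rose, and Col6a1 and Col6a2 fell, so the chains of collagen VI moved in opposite directions. With 6 of 9 members called, 4 higher and 2 lower, the share stands beside 5.88% of all tested genes. The median log2 fold change of the members was 0.27, and that of all tested genes was 0.0023.

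Col6a3 (ENSMUSG00000048126, chr1:90765923-90843971, minus strand) encodes the α3 chain of collagen VI, the longest of the chains, whose C-terminal fragment is the adipokine endotrophin. Its raw counts were 4, 19 and 16 in the untreated empty vector libraries and 156, 176 and 237 in the treated ones. The groups were far apart, but the untreated level was near the floor of 3 counts. In CPM the means were 0.164 ± 0.10 and 2.57 ± 0.592 (SD, n = 3), a 15.5-fold rise (log2 fold change 3.96, SE 0.56, edgeR adjusted p = 0.000324). The fold rests on few reads in the untreated libraries and shrank to a log2 change of 0.23 with limma on log2(FPKM + 1), where the pseudocount exceeds every value of the gene, with its call kept. The gene Gm36970 overlaps Col6a3 on the same strand, and reads from the stretch they share cannot be told apart. How much of the Col6a3 transcript that stretch covers was not examined.

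The other chains of collagen VI, α1 and α2, are encoded side by side on chromosome 10, 85.2 kb apart: Col6a1 (ENSMUSG00000001119, chr10:76708792-76726168) and Col6a2 (ENSMUSG00000020241, chr10:76595762-76623630), both on the minus strand. Col6a1 had 187, 168 and 182 CPM in the untreated empty vector libraries and 140, 153 and 150 CPM with TGF-β. All 3 treated libraries lay below all 3 untreated ones, a fall of 17.6% (log2 fold change −0.28, SE 0.05, edgeR adjusted p = 0.00200). Col6a2 went from 88.2, 82.9 and 84.0 CPM to 66.6, 69.8 and 70.0 CPM. This was a fall of 19.1%, again without overlap (log2 fold change −0.31, SE 0.05, edgeR adjusted p = 0.000441). Fitted to the empty vector libraries alone, the fall of Col6a1 had an adjusted p of 0.0556 in edgeR and was not called.

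Per length, the α3 chain stayed far below its partners in every group. The ratio of Col6a1 to Col6a3 in FPKM was 2009 to 10878 in the untreated empty vector libraries and 126 to 186 with TGF-β. The ratio of Col6a2 to Col6a3 was 520 to 2695 without TGF-β and 31.0 to 44.7 with it. Between Col6a1 and Col6a2 the ratio was 4.01 ± 0.133 (SD, n = 3) and 4.08 ± 0.0829 (SD, n = 3). Both chains fell together and their ratio moved by less than the spread between libraries, although its size depends on the lengths used, being 2.53 with the longest transcripts. The chains α4, α5 and α6 that can take the place of α3 were also rare: Col6a4 had 0 to 34 counts per library, Col6a5 had 0 and Col6a6 at most 12.

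**Figure D3:**
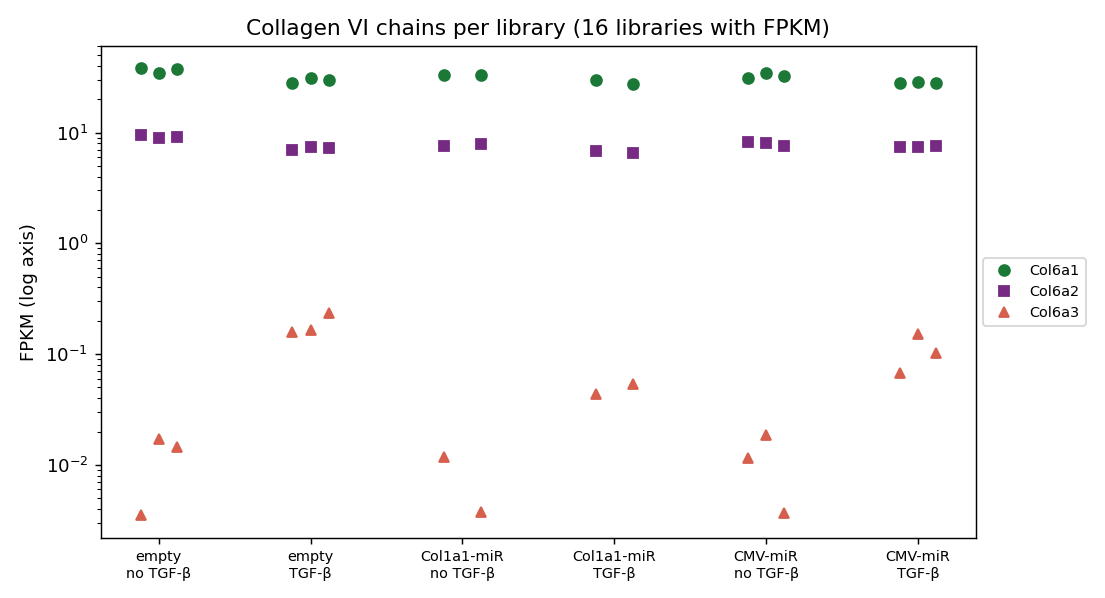
FPKM of the collagen VI chains (log axis) in the 16 libraries whose FPKM column carries a sample letter, by vector and treatment; each marker is 1 library. Col6a1 lies between 27.2 and 38.0 and Col6a2 between 6.47 and 9.42, while Col6a3 runs from 0.00349 to 0.235.

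Col7a1 (ENSMUSG00000025650, chr9:108953586-108984875, plus strand) encodes the collagen of anchoring fibrils, which is mutated in dystrophic epidermolysis bullosa. In empty vector cells it had 23.6, 19.4 and 26.5 CPM without TGF-β and 51.1, 54.9 and 60.4 CPM with it. The lowest treated library was above the highest untreated one, and the rise was 2.40-fold (log2 fold change 1.26, SE 0.12, edgeR adjusted p = 7.3e-06). The miRNA gene Mir711 lies within Col7a1 on the same strand.

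Col12a1 (ENSMUSG00000032332, chr9:79598991-79718720, minus strand) encodes collagen XII, which binds collagen I fibrils in tendon, ligament and skin under load. Its level was 110, 123 and 108 CPM without TGF-β and 215, 231 and 233 CPM with it in empty vector cells. The treated libraries were about 2 times the untreated ones, a rise of 1.99-fold (log2 fold change 0.99, SE 0.06, edgeR adjusted p = 5.02e-08). The antisense gene 4930562D21Rik overlaps Col12a1, and whether the counting used strand is not given in the sources used here. The other called FACIT gene, Col16a1 (ENSMUSG00000040690, chr4:130047840-130099283, plus strand), which encodes collagen XVI of fibroblast and chondrocyte matrix, moved less. It went from 135, 134 and 145 CPM to 155, 178 and 164 CPM, a rise of 1.20-fold without overlap (log2 fold change 0.27, SE 0.05, edgeR adjusted p = 0.00662). Offsets for transcript length and GC content left Col16a1 at a log2 fold change of 0.19 (edgeR adjusted p = 0.0697), and the fit of the groups compared alone gave an adjusted p of 0.0953 in edgeR.

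Of collagen VIII and collagen XIV, Col8a1 lay close to the threshold in empty vector cells and the other genes had few counts. Col8a1 (ENSMUSG00000068196, chr16:57624258-57754737, minus strand), the α1 chain of the short-chain collagen of vessel walls, had 93.6, 92.8 and 99.1 CPM without TGF-β and 80.4, 79.1 and 89.8 CPM with it. The groups did not overlap, and the difference just missed the threshold (log2 fold change −0.20, SE 0.06, edgeR adjusted p = 0.0574). The call depended on the processing: it was made with DESeq2 (adjusted p = 0.0227), and in edgeR with scaling by total counts (adjusted p = 0.0185), the filter of 10 counts in every library (0.0325), counts divided by 4 (0.0348) and length and GC offsets (0.00825). Limma on log2(FPKM + 1) and log2(FPKM + 0.1) made it too (limma adjusted p = 0.0413 and 0.0421). It was also made without any one of 4 libraries: empty vector with TGF-β replicate e (−0.27, edgeR adjusted p = 0.0155) and CMV-miR-29b without TGF-β replicate c or e or with TGF-β replicate c (edgeR adjusted p = 0.0390, 0.0481 and 0.0449). Col8a2 (ENSMUSG00000056174, chr4:126286793-126314330, plus strand), its partner chain, had raw counts of 12, 4 and 32 in untreated and 21, 39 and 31 in treated libraries. Col14a1 (ENSMUSG00000022371, chr15:55307750-55520803, plus strand), collagen XIV, a FACIT of skin and tendon, had 17, 8 and 8 counts in untreated and 0, 0 and 12 in treated libraries. Both sets overlapped, and a difference was not detectable at this depth (edgeR adjusted p = 0.599 for Col8a2 and 0.800 for Col14a1). Antisense genes overlap Col14a1 as well.

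The promoters of Col6a3 and Col7a1, the 2 genes with the largest rises, are shown because the Smad proteins that carry the TGF-β signal bind the letters CAGAC. Both strands were searched for CAGAC, which reads GTCTG on the other strand, in RefSeq windows of 250 bases before to 50 after the start of transcription. Of 32851 such windows, 49.6% held at least 1 match. The 250 bases before the start follow, 5′ to 3′ in the direction of transcription, with the matches in capitals.
Col6a3 (GRCm38.p6, chr1:90843972-90844221, minus strand): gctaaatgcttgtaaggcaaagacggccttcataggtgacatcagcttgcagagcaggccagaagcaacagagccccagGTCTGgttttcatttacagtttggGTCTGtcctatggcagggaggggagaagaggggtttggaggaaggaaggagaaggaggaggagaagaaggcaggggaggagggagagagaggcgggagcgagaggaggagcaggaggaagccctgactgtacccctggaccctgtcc
Col7a1 (GRCm38.p6, chr9:108953336-108953585, plus strand): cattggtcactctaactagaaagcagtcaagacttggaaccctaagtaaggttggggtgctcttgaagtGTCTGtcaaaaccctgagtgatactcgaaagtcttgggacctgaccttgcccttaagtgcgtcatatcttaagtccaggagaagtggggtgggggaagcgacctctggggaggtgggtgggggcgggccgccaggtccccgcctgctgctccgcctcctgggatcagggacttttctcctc
The window of Col6a3 held 2 matches, 171 and 147 bases before the start, and that of Col7a1 held 1, 181 bases before it. Col8a1, which was not called, also held 1, while Col16a1, which rose, and Col6a1, which fell, held none. One of the 2 windows listed for Col6a2 held 1 match. With a match in about every other promoter, the letters do not set these genes apart.

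In cells with a miR-29b vector, TGF-β raised the same 4 genes, Col6a3, Col7a1, Col12a1 and Col16a1. In Col1a1-miR-29b cells 4 of 9 members were called, all higher, beside 4.32% of all tested genes. In CMV-miR-29b cells 5 were called, 4 higher and Col6a1 lower, beside 4.95% of all tested genes. The medians of the members were 0.36 and 0.32 on the log2 scale, against −0.0056 and −0.0025 for all tested genes. Each vector has its own untreated control libraries, so that these 3 responses share no sample.

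Col12a1 had 84.3, 85.0 and 87.8 CPM in untreated Col1a1-miR-29b cells and 161, 156 and 150 CPM with it, a 1.82-fold rise (log2 fold change 0.86, SE 0.06, edgeR adjusted p = 3.84e-07). In CMV-miR-29b cells it had 111, 113 and 101 CPM and then 199, 225 and 203 CPM, a 1.93-fold rise (log2 fold change 0.95, SE 0.06, edgeR adjusted p = 9.17e-08). The rise was near 2-fold with every vector, but it started and ended lower with Col1a1-miR-29b. Col7a1 had 23.8, 22.7 and 25.9 CPM without TGF-β and 41.3, 44.5 and 54.6 CPM with it in Col1a1-miR-29b cells, a 1.94-fold rise (log2 fold change 0.95, SE 0.12, edgeR adjusted p = 0.000153). In CMV-miR-29b cells its values were 21.3, 20.6 and 23.0 CPM and then 40.6, 43.6 and 50.9 CPM, a 2.08-fold rise (log2 fold change 1.06, SE 0.12, edgeR adjusted p = 5e-05). Treated and untreated libraries did not overlap with either vector.

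In Col1a1-miR-29b cells, Col6a3 had raw counts of 12, 4 and 12 when untreated and 44, 54 and 67 with it. In CMV-miR-29b cells the counts were 13, 19 and 4, and then 67, 135 and 101. The treated libraries were above the untreated ones with both vectors, by 5.90-fold with Col1a1-miR-29b (log2 fold change 2.56, SE 0.56, edgeR adjusted p = 0.0143) and 9.28-fold with CMV-miR-29b (log2 fold change 3.21, SE 0.56, edgeR adjusted p = 0.00205). The call in Col1a1-miR-29b cells was lost without the untreated replicate d (log2 fold change 2.19, edgeR adjusted p = 0.0718) and without the treated library that has no letter (2.37, edgeR adjusted p = 0.0544). It was also lost with limma on log2(FPKM + 1) and log2(FPKM + 0.1), where the log2 fold change was 0.06 and 0.47 (limma adjusted p = 0.593 and 0.340). Fitting the replicate letter as a block, without and with length and GC offsets, lost it too (edgeR adjusted p = 0.168 and 0.151). So did the fit without the unlettered libraries (edgeR adjusted p = 0.105).

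Col16a1 rose from 128, 132 and 132 to 164, 162 and 175 CPM in Col1a1-miR-29b cells (log2 fold change 0.36, SE 0.05, edgeR adjusted p = 0.000778). In CMV-miR-29b cells it rose from 139, 132 and 134 to 160, 164 and 180 CPM (log2 fold change 0.32, SE 0.05, edgeR adjusted p = 0.00199). Neither pair of groups overlapped, though limma on log2(FPKM + 1) did not call the first (limma adjusted p = 0.0510). Col6a1 had 159, 158 and 150 CPM and then 145, 134 and 141 CPM in Col1a1-miR-29b cells, which was not called (log2 fold change −0.16, SE 0.05, edgeR adjusted p = 0.105). In CMV-miR-29b cells Col6a1 fell from 154, 166 and 158 to 136, 141 and 139 CPM (log2 fold change −0.20, SE 0.05, edgeR adjusted p = 0.0244). That call was lost without the untreated replicate d (−0.18, edgeR adjusted p = 0.0883) and without the treated replicate c (−0.18, 0.115) or e (−0.21, 0.0619). Limma on log2(FPKM + 1) and log2(FPKM + 0.1) did not make it either (limma adjusted p = 0.0502 and 0.0531). The same held with the replicate letter fitted as a block (edgeR adjusted p = 0.0686) and with the groups compared alone (0.0721). Col6a2 was not called with either vector (log2 fold change −0.14 and −0.10, SE 0.05 for both, edgeR adjusted p = 0.104 and 0.299), and neither was Col8a1 (−0.20 and −0.09, SE 0.06 for both, edgeR adjusted p = 0.0586 and 0.500). With Col1a1-miR-29b, the treated libraries of Col6a1, Col6a2 and Col8a1 all lay below the untreated ones. DESeq2 called Col6a2 (adjusted p = 0.0450) and Col8a1 (adjusted p = 0.0256) with that vector. Col6a2 was also called by edgeR with scaling by total counts (adjusted p = 0.0485) and with length and GC offsets without and with the block (0.00843 and 0.0497). The offsets without the block called Col6a1 as well (edgeR adjusted p = 0.00629). Col8a1 was there also called by edgeR with scaling by total counts (adjusted p = 0.0247), the filter of 10 counts in every library (0.0472), counts divided by 4 (0.0369) and length and GC offsets (0.0294), and without the empty vector TGF-β replicate e (0.0417).

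**Figure D4:**
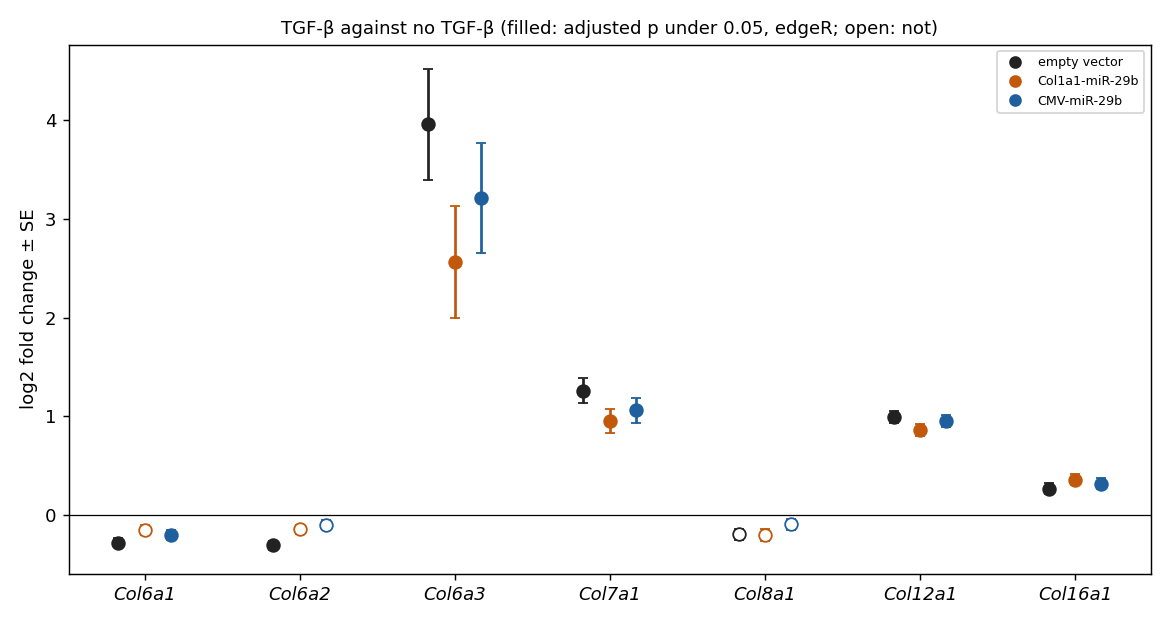
Log2 fold change with TGF-β (y axis, error bars: SE) for 7 genes in empty vector, Col1a1-miR-29b and CMV-miR-29b cells. Col8a2 and Col14a1 are left out, and Col6a3, also near the floor without TGF-β, is shown. Filled points passed an edgeR adjusted p of 0.05. Col6a3 has the highest points (3.96, 2.56 and 3.21) with the widest error bars.

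Whether a miR-29b vector altered the response to TGF-β was tested as a difference of the 2 responses. No member was called: 0 of 9 for Col1a1-miR-29b and 0 of 9 for CMV-miR-29b, beside 0% of all tested genes in both by edgeR. At an unadjusted p under 0.05 there was 1 member in each comparison, Col6a2, beside 961 and 1129 of all tested genes. DESeq2 called 0 members in both, beside 27 and 19 of all tested genes. The response of Col6a3 was lower by 1.40 on the log2 scale with Col1a1-miR-29b (log2 difference −1.40, SE 0.78, edgeR adjusted p = 1) and by 0.74 with CMV-miR-29b (−0.74, SE 0.76, edgeR adjusted p = 0.956). For Col7a1 the differences were −0.31 (SE 0.17) and −0.20 (SE 0.17), and for Col12a1 −0.13 (SE 0.09) and −0.04 (SE 0.09). The last of these changed sign without the TGF-β replicate c of CMV-miR-29b (0.0046) or the untreated replicate e of the empty vector (0.0051).

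Levels in cells with a miR-29b vector were then compared with those in empty vector cells under the same treatment. Both vectors were compared with the same empty vector libraries, so these comparisons are not independent of each other. With Col1a1-miR-29b and TGF-β, 2 of 9 members were called, Col6a3 and Col12a1, both lower, beside 12.9% of all tested genes. Without TGF-β, 3 of 9 were called, Col6a1, Col6a2 and Col12a1, all lower, beside 6.27% of all tested genes. The medians of the members were −0.13 and −0.20, and those of all tested genes 0.02 and 0.02.

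Col12a1 was lower with Col1a1-miR-29b under both treatments. Without TGF-β, its 84.3 to 87.8 CPM in Col1a1-miR-29b cells stood against 108 to 123 CPM in empty vector cells, 24.7% lower (log2 fold change −0.41, SE 0.06, edgeR adjusted p = 0.00289). With TGF-β, 150 to 161 CPM stood against 215 to 233 CPM, 31.2% lower (log2 fold change −0.54, SE 0.06, edgeR adjusted p = 0.000224). The groups did not overlap, and both calls held under every alternative listed in the section on processing, each library left out included. Col12a1 is one of the 3 members with no miR-29b seed match in the 3′ UTR that was searched.

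Col12a1 also separated the miR-29b vectors from each other. Without TGF-β it was higher in CMV-miR-29b than in Col1a1-miR-29b cells, at 101 to 113 against 84.3 to 87.8 CPM (log2 fold change 0.34, SE 0.06, edgeR adjusted p = 0.0150). With TGF-β it was higher as well, at 199 to 225 against 150 to 161 CPM (log2 fold change 0.42, SE 0.06, edgeR adjusted p = 0.00596). Col12a1 was the 1 member of 9 called in each of these comparisons, beside 1.81% of all tested genes without TGF-β and 1.93% with it. Without TGF-β the call was lost when CMV-miR-29b replicate c (0.32, edgeR adjusted p = 0.0884) or Col1a1-miR-29b replicate d (0.34, edgeR adjusted p = 0.0707) was left out. Fitted to the groups compared alone it was lost without TGF-β (edgeR adjusted p = 0.107) and with it (edgeR adjusted p = 0.0535).

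Col6a3 with TGF-β had 44 to 67 counts in Col1a1-miR-29b cells against 156 to 237 in empty vector cells, and 67 to 135 in CMV-miR-29b cells. The level in Col1a1-miR-29b cells was 3.37-fold lower than with the empty vector (log2 fold change −1.75, SE 0.50, edgeR adjusted p = 0.0306). With CMV-miR-29b all 3 libraries were also below the empty vector libraries, but the difference was not called (log2 fold change −0.82, SE 0.49, edgeR adjusted p = 0.535). The miR-29b vectors did not differ by a called amount (log2 fold change 0.93 for CMV-miR-29b over Col1a1-miR-29b, SE 0.49, edgeR adjusted p = 0.394). The call for Col1a1-miR-29b was lost without any one of 5 of its 6 libraries: treated Col1a1-miR-29b replicate c (−1.61, edgeR adjusted p = 0.119), d (−1.74, 0.0844) and the one without a letter (−1.95, 0.0577), and treated empty vector replicate c (−1.87, 0.0553) and e (−1.54, 0.123). The replicate block without and with length and GC offsets lost it too (edgeR adjusted p = 0.0996 and 0.137). So did the fit without the unlettered libraries (edgeR adjusted p = 0.0672).

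The α1 and α2 chains of collagen VI were lower with Col1a1-miR-29b when no TGF-β was given. The reference was the same untreated empty vector libraries from which both genes fell with TGF-β, so these results are not independent. Those libraries had the highest mean of the 6 groups for both genes (179 CPM for Col6a1 and 85.0 CPM for Col6a2). Col6a1 had 150 to 159 CPM against 168 to 187 CPM, 13.1% lower (log2 fold change −0.20, SE 0.05, edgeR adjusted p = 0.0260). Col6a2 had 68.4 to 71.0 CPM against 82.9 to 88.2 CPM, 18.2% lower (log2 fold change −0.29, SE 0.05, edgeR adjusted p = 0.00332). Neither pair of groups overlapped. The call of Col6a2 was lost with the replicate letter fitted as a block, without and with length and GC offsets (edgeR adjusted p = 0.05004 and 0.0535). The call of Col6a1 was lost with scaling by total counts (−0.17, edgeR adjusted p = 0.0630) and without empty vector replicate c (−0.18, edgeR adjusted p = 0.0919) or e (−0.20, 0.0579) or the Col1a1-miR-29b library that has no letter (−0.18, 0.0914). It was also lost with limma on log2(FPKM + 1) and log2(FPKM + 0.1) (limma adjusted p = 0.195 and 0.209). The block without and with offsets lost it too (edgeR adjusted p = 0.189 and 0.181). So did the groups compared alone (edgeR adjusted p = 0.0727) and the fit without the unlettered libraries (0.113). With TGF-β the log2 fold changes were −0.08 for Col6a1 and −0.13 for Col6a2 (SE 0.05 for both, edgeR adjusted p = 0.353 and 0.0796), and Col6a2 was then called by DESeq2 (adjusted p = 0.0384). Col7a1 with TGF-β had 41.3 to 54.6 CPM in Col1a1-miR-29b cells against 51.1 to 60.4 CPM, which overlapped (log2 fold change −0.25, SE 0.12, edgeR adjusted p = 0.221). Col8a1 and Col16a1 had overlapping libraries in this comparison with TGF-β, at 81.5 to 87.0 against 79.1 to 89.8 CPM and 162 to 175 against 155 to 178 CPM.

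With CMV-miR-29b, whose cells held the most Mir29b-1 counts, no member was called against the empty vector. The count was 0 of 9 with TGF-β, beside 0.00945% of all tested genes, and 0 of 9 without it, beside 0.00473%. At an unadjusted p under 0.05 there was 1 member with TGF-β and 2 without it, beside 2531 and 1156 of the 21161 tested genes, and DESeq2 called 0 and 1 members, beside 264 and 43 genes in all. The 1 with TGF-β was Col7a1, at 40.6 to 50.9 CPM against 51.1 to 60.4 CPM (log2 fold change −0.30, SE 0.12, edgeR adjusted p = 0.351). The 2 without TGF-β were Col6a1 (log2 fold change −0.17, SE 0.05, edgeR adjusted p = 0.755) and Col6a2 (−0.20, SE 0.05, edgeR adjusted p = 0.488), and Col6a2 was the one DESeq2 called (adjusted p = 0.0160). Col6a2 had 70.2 to 76.7 CPM there against 82.9 to 88.2 CPM in empty vector cells, with no overlap. With TGF-β, Col6a1 stood at −0.09 (SE 0.05) and Col12a1 at −0.11 (SE 0.06), and without it Col12a1 stood at −0.07 (SE 0.06). Col12a1 had 199 to 225 CPM there with TGF-β, overlapping the 215 to 233 CPM of empty vector cells.

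**Figure D5:**
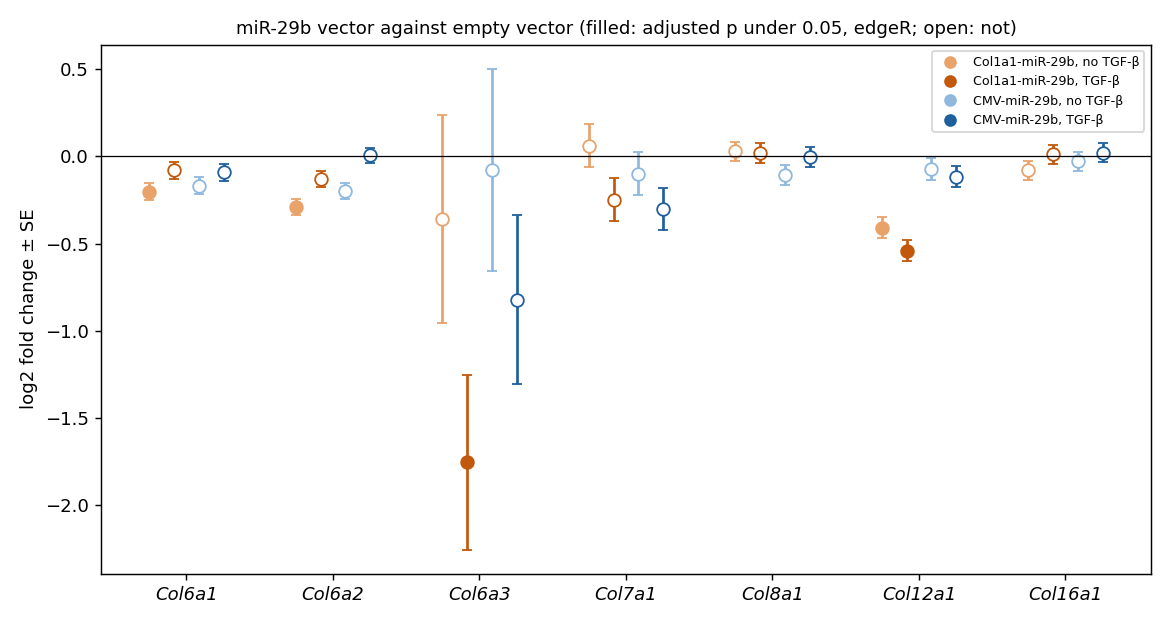
Log2 fold change of a miR-29b vector against the empty vector (y axis, error bars: SE) for 7 genes, without and with TGF-β; filled points passed an edgeR adjusted p of 0.05. The filled points are Col6a1 and Col6a2 without TGF-β, Col6a3 with TGF-β and Col12a1 under both treatments, all for Col1a1-miR-29b.

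Other genes of these classes and their partners were read as lists. Of 11 relatives of the members (other chains of collagen VI and other short-chain and FACIT collagens), 4 passed the filter on low counts and 0 were called with TGF-β in empty vector cells, by edgeR, by DESeq2 and under the other alternatives, with 1 at an unadjusted p under 0.05 in edgeR (Col20a1). Of 19 partners, genes whose products bind or process these collagens, 9 rose and 1 fell, beside the 5.88% of all tested genes called in either direction, with a median log2 fold change of 0.29 beside 0.0023 for all tested genes. The 3 largest changes among those called were those of Itga11, the α11 subunit of a collagen-binding integrin (log2 fold change 2.59, SE 0.21), Lamb3, a chain of the laminin to which anchoring fibrils attach (1.41, SE 0.16), and Dcn, the small proteoglycan decorin (−1.11, SE 0.22), with edgeR adjusted p = 9.91e-07, 2.7e-05 and 0.00446. Bgn, the related proteoglycan biglycan, and Bmp1, which cleaves the propeptides of procollagens including that of collagen VII, were among those that rose (log2 fold change 0.93, SE 0.05, and 0.71, SE 0.10). Of 10 fibrillar collagen genes tested, 8 rose and 0 fell, with a median of 1.17, and the largest rises were those of Col11a1 (1.97, SE 0.16), Col1a2 (1.48, SE 0.10) and Col5a3 (1.26, SE 0.06). With Col1a1-miR-29b against the empty vector under TGF-β, 7 of the 10 fibrillar genes and 4 of the 19 partners were lower and none of either list was higher, beside the 12.9% of all tested genes called in either direction, while 0 of the 4 relatives were called by edgeR or DESeq2, with 0 at an unadjusted p under 0.05. The count of partners was 2 without the treated Col1a1-miR-29b replicate c or the treated empty vector replicate c. The medians there were −0.51 for the fibrillar genes, −0.21 for the partners and 0.45 for the relatives. The last rests on only 4 genes, none called, among them Col6a4 (0.25, SE 1.46) with 0 to 34 counts per library.

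Across the 18 libraries, the 6 members called with TGF-β in empty vector cells split by the direction of that response. Treated and untreated libraries are both included, so this split largely restates the response itself. Col8a2 and Col14a1 did not follow it, with r between −0.39 and 0.41 with the other members, and Col8a1 had not been called by edgeR in empty vector cells. Pearson's r of log2 CPM was 0.94 between Col6a3 and Col12a1, 0.93 between Col7a1 and Col16a1 and 0.88 between Col6a1 and Col6a2, and it was −0.78 between Col8a1 and Col12a1. These are descriptions over libraries that share treatments, not independent samples. Among 11215 or 11216 other genes with a mean of at least 5 CPM, those closest in pattern were Creb3l2 and Fam114a1 for Col12a1 (r = 0.99 for both), Itgb5 and Anxa8 for Col7a1 (r = 0.97 for both), Ahnak2 and Coro6 for Col16a1 (r = 0.98 and 0.96) and Sec31a and Chsy1 for Col6a3 (r = 0.97 and 0.96). Col6a1 was closest to Pcx and Col6a2 (r = 0.89 and 0.88), Col6a2 to Lpin1 and Ephx1 (r = 0.91 and 0.90) and Col8a1 to Irs1 and Styk1 (r = 0.88 and 0.87). Creb3l2 encodes a transcription factor of secretory cells and Sec31a a coat protein of the vesicles that leave the endoplasmic reticulum. For the genes with few counts, Col8a2 was closest to Flvcr1 and Tmem208 (r = 0.75 and 0.73) and Col14a1 to Sms and Tmem165 (r = 0.85 and 0.74), which rests on counts near the floor.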

How the data were processed

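The authors deposited whole-number counts per gene and FPKM values, made by them from stranded poly(A) libraries read on an Illumina NovaSeq, trimmed by cutadapt, aligned by HISAT2 and assembled by StringTie. The counter and its use of strand are not given in the sources used here. Counts deposited by the authors are not normalized, and the FPKM values hold 0.0001 in place of 0. The submitters' processing notes list mm9, but 52506 of the 55450 genes have the coordinates of the GENCODE annotation of GRCm38, which is used here for positions and 3′ UTRs. The third count column of each Col1a1-miR-29b group carries a letter that no sample title has. It entered as an unlettered library of that group, and its FPKM was not used, which leaves 2 per-sample columns unused and 16 libraries in tests on FPKM.

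Counts were fitted with edgeR 4.0.16 (R 4.3.3): 21161 genes passed filterByExpr, scaling was by TMM, 1 mean for each of 6 groups over all 18 libraries, and quasi-likelihood tests of 11 comparisons with Benjamini-Hochberg adjustment over all genes. The scripts were tested on simulated data. Depth ranged from 65898017 to 80332633 counts per library, and the detection floor was set at 3 counts, for counting error alone. Alternatives were DESeq2 1.42.0, its size factors in edgeR, total-count scaling, a low filter (1 count anywhere) and a strict one (10 in each library), groups compared alone, a replicate block, each library left out, limma 3.58.1 on log2 FPKM with a pseudocount of 1 or 0.1, counts divided by 4, and length and GC offsets without and with the block. A fit without the unlettered libraries was added after seeing the data. The rule names all 9 members, the 2 genes closest in pattern to each, and the 3 largest called changes of each list with TGF-β in empty vector cells. Beyond that rule, Bgn and Bmp1, the marker genes and the chains Col6a4, Col6a5 and Col6a6 and Col20a1 were named after their values were seen. The members and lists were chosen with earlier results of these data known. Sequences of miRNAs and promoters are from RefSeq tables on GRCm38.p6, in which 7 of the 9 members had a promoter entry. One marker gene is not reported here.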

Additional observations from a re-analysis of the deposited data

How the results depend on the processing

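For the 45 fold changes given for members, 1387 values were computed under alternatives: 1306 kept direction and side of the threshold, 53 lost the call, 26 gained it and 2 changed sign. Those 2 were the difference in TGF-β response of Col12a1 between CMV-miR-29b and empty vector, with each library left out in turn −0.094 to 0.0051. Many alternatives left out 1 library of a group outside the comparison, which hardly moves a fold change. For Col6a3 with TGF-β in empty vector cells such values ran from 3.94 to 3.95, against 3.96. Many results also lay far from the threshold, so the number kept does not measure how stable the calls near it are. Leaving out each library gave 1 to 2 members called for Col1a1-miR-29b against empty vector with TGF-β, and 0 to 1 for CMV-miR-29b against Col1a1-miR-29b without it. For TGF-β in Col1a1-miR-29b cells, where 4 members were called, limma gave 2 on log2(FPKM + 1) and 2 on log2(FPKM + 0.1), and length and GC offsets gave 7. The number of all genes called also changes with the setting. In this comparison it was 914 by edgeR and 1313 by DESeq2. The counts of members under alternatives in this section stand without that share, so they do not separate the members from the setting. For Col1a1-miR-29b against empty vector with TGF-β, where 2 were called, the filter of 10 counts in every library gave 1, as did the fit without the unlettered libraries. DESeq2 called 1 for CMV-miR-29b against empty vector without TGF-β. For CMV-miR-29b against Col1a1-miR-29b without TGF-β, both limma scales, the groups compared alone and the fit without the unlettered libraries gave 0; with TGF-β, limma on log2(FPKM + 0.1) and the groups compared alone gave 0. The cause was not tested, except that the filter removed Col6a3.

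Same-letter libraries deviated from group means with an average correlation of 0.01 over 36 pairs and 10360 genes, the lowest pair at −0.12. The main fit held no block because the letters are not said to mark a shared day. For different letters the average was −0.0066 over 70 pairs. Deviations from a group mean cancel within the group, so the second average largely follows from the first and is no separate check. The replicate block, which left out the 2 unlettered libraries, called 6 members for TGF-β in empty vector cells. For TGF-β under Col1a1-miR-29b it called 3, and under CMV-miR-29b 4. With the replicate block 1 was called for Col1a1-miR-29b against empty vector with TGF-β and 1 without (Col12a1 in both, with Col6a2 without TGF-β at −0.29, edgeR adjusted p = 0.05004, and 0.0535 with offsets and the block), and 0 for CMV-miR-29b against Col1a1-miR-29b in both, and the offsets with the block gave the same counts of 1, 1, 0 and 0. Col6a3, Col8a2 and Col14a1, with counts from single figures, are limited by depth, and the other list counts that moved were the partners for Col1a1-miR-29b with TGF-β (1 to 4).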
